A study of Rattus norvegicus with 14 samples.

Results

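Voltage-gated sodium channels open when a neuron's membrane depolarises and carry the rapid inward current of the action potential. Each channel has 1 large pore-forming alpha subunit, encoded by genes such as Scn1a, Scn2a, Scn3a and Scn8a, and smaller beta subunits such as the product of Scn2b, which adjust gating and surface level. In hippocampal principal cells the channels are most concentrated at the axon initial segment, where ankyrin-G holds them. Transcripts of these 5 genes were measured in the hippocampal subfield CA3 of rats labelled learning activated and of control rats. The genes were taken by name, and all probe sets that the array's platform annotation pairs with 1 of them alone were kept, which gave 5 probe sets, 1 per gene, of 15923 on the array.

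The learning group held 7 rats and the control group 7, with 1 Affymetrix RAE230A array per animal. All were male Long-Evans rats, 3 to 4 months old, for which the labels name no transgene or drug, and all had been trained in a standard water maze 2 to 3 weeks earlier. Learning rats then swam 8 trials, 8 min apart, in an unfamiliar pool with orienting cues and a visible platform in 1 place, and control rats swam the same number towards a visible platform that was moved, with no informative cues. Every rat had a 90 s trial without the platform 1 h later, and tissue was dissected at once. Cues and platform movement differed together, so their effects cannot be told apart.

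The probe sets 1369210_at for Scn1a, 1369662_at for Scn2a, 1369691_at for Scn3a and 1369311_at for Scn2b passed the filter on dim signal. Probe set 1369064_a_at for Scn8a did not. The filter kept 9520 probe sets whose mean log2 level was at or above the 40th percentile, a log2 level of 3.88. Of the 4 that were tested, 0 differed between the groups at an adjusted p under 0.05 (limma, Benjamini-Hochberg over all 9520), where 319 of all tested probe sets did (3.35%, of which 243 or 2.55% of the tested were higher and 76 or 0.798% lower in learning rats). At an unadjusted p under 0.05 there were 2 of the 4, Scn2a and Scn3a, both with the higher mean in learning rats, against 19.9% of all tested probe sets. The groups overlapped in all 5 genes, and they did not overlap in 2.1% of the tested probe sets. All tested members but Scn1a, 3 of 4, had a fold change above 0, and 42% of all tested probe sets did. Their median log2 fold change was 0.34, against -0.02 over all tested probe sets.

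**Figure D1:**
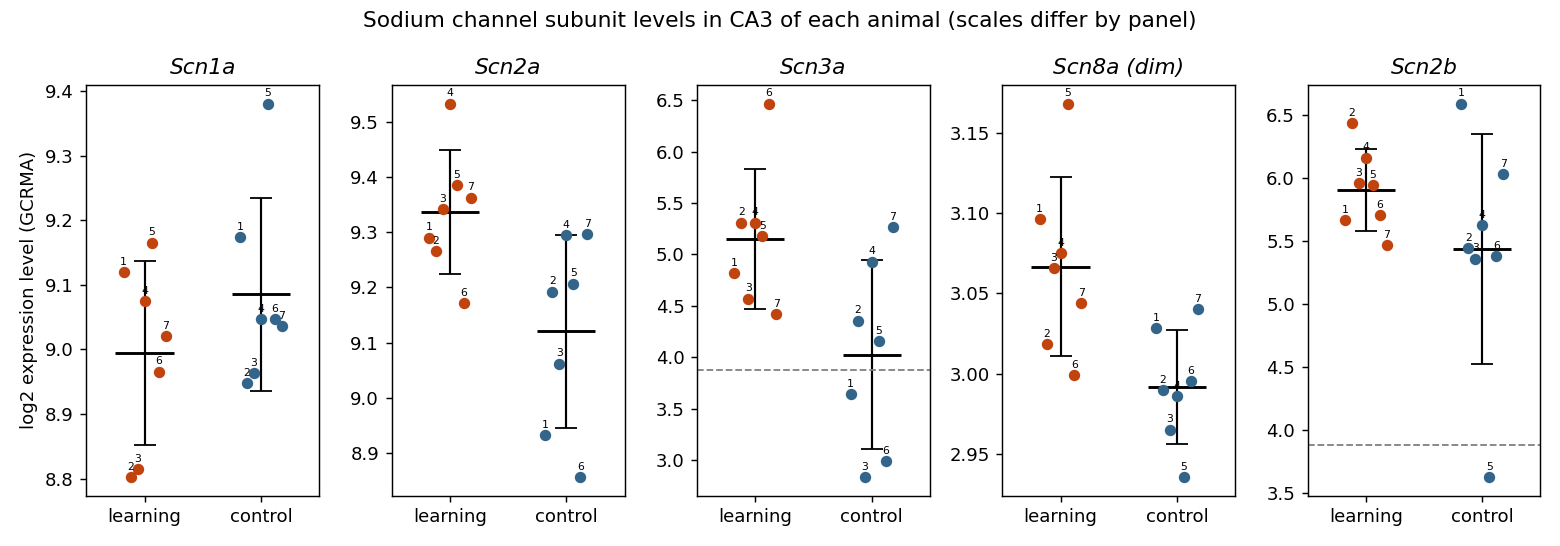
Log2 expression level (y axis, a different scale in each panel) of the 5 sodium channel genes in the 7 learning and the 7 control rats. Points are animals with their replicate numbers, black lines and bars are the group mean and SD, and the dashed line is the dim cutoff of 3.88. All 7 learning animals lie above the control mean for Scn2a, Scn3a, Scn8a and Scn2b, and 2 do for Scn1a. The Scn2b control mean is lowered by control replicate 5, at 3.63, and Scn8a is below the cutoff in every array. How often this holds over all probe sets was not counted.

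The arrays were compared as deposited, after the authors' processing with GCRMA. Any pair of arrays correlated at 0.983 to 0.995 over the tested probe sets, a value to which level differences between probe sets contribute. Column means were 5.44 in every array, which does not show how alike the arrays were before processing. Control replicate 5 stood apart, with the highest 3'/5' signal ratio of all arrays for each of 3 control genes, a measure of how far labelled copies reach towards the 5' end of a transcript. Its hexokinase ratio was 2.57 on the log2 scale, and that of the next array was 1.61. Each member's value is therefore also given without it. Learning and control arrays also differed in the balance between dimmer and brighter probe sets of the same 350 genes (-3.25 ± 0.03 against -3.42 ± 0.11 log2, SD, n = 7 each, two-sided exact permutation p = 5.83e-04, adjusted over 14 array measures p = 0.00816). The groups did not overlap in it, at -3.30 to -3.20 in learning and -3.65 to -3.34 in control arrays. As a covariate it can therefore hardly be separated from the group. Of 6 genes listed as CA3 pyramidal markers 3 were above the dim cutoff, Grik4 (mean log2 level 7.95), Bok (8.85) and Chgb (11.54). The mean level of these 3 ran from 9.38 to 9.62 in learning arrays and from 9.27 to 9.64 in control arrays. Of 5 listed CA1 pyramidal markers 4 were above the cutoff as well. Their mean level ran from 7.00 to 7.66 in learning and from 6.65 to 8.00 in control arrays. Presence of the CA3 markers alone therefore does not show that the tissue was free of CA1. Of 9 marker lists 1 differed after adjustment, that of choroid plexus, a tissue that borders the hippocampus. Its 3 measured of 7 genes had a mean level of 6.48 to 7.30 in learning and 7.29 to 8.76 in control arrays (exact permutation p = 0.00117, adjusted p = 0.00816), with Folr1, Kl and Aqp1 below the dim cutoff. Of the 3 only Ttr was called, with a log2 difference of -2.09 (adjusted p = 0.0124 in limma). Igfbp2 had -0.70 (adjusted p = 0.237) and Enpp2 -0.03 (adjusted p = 0.844). The other 8 lists had adjusted p-values of 0.124 and above, and the part of neighbouring tissue in the members' values was not tested. In bulk tissue, fewer cells of a type and less RNA per cell cannot be told apart.

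Scn2a and Scn3a encode the alpha subunits Nav1.2 and Nav1.3. Nav1.2 is the main sodium channel of immature axons and persists in unmyelinated axons of excitatory neurons. Nav1.3 is known as an embryonic form whose transcript declines in the rodent brain after birth. In the RefSeq gene table of assembly GRCr8 these genes are direct neighbours on rat chromosome 3, read in opposite directions away from each other. Scn1a lies farther along the same chromosome with Scn9a as its neighbour, Scn8a is on chromosome 7 and Scn2b on chromosome 8. Scn2a and Scn3a were the members that passed the dim filter and had an unadjusted p under 0.05. The 150 bases just before the outermost annotated start of both neighbours are therefore shown. They come from RefSeq, build GRCr8, and are chr3:70710712-70710861 on the plus strand for Scn2a and chr3:70666199-70666348 on the minus strand for Scn3a.
Scn2a: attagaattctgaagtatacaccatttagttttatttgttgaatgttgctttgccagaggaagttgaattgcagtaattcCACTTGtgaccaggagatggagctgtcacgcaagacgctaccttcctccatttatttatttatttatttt
Scn3a: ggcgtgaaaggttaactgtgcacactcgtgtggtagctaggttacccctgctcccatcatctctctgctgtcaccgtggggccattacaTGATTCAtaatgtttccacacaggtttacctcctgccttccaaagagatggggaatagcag
Capitals mark matches on either strand to 3 short motifs, the E-box CANNTG, the AP-1 site TGANTCA and the CRE half-site TGACG. Scn2a held 1 E-box, starting 70 bases before the start, and Scn3a held 1 AP-1 site, starting 61 bases before it. Of 24679 upstream windows of the same length, 47.3% held an E-box, 3.64% an AP-1 site and 12.6% a CRE half-site. These 3 motifs do not overlap in the windows shown. The left and right parts of the RE1 element, TTCAGNACC and GGACAG, had no match in either window (0.685% and 11.0% of all windows), nor had the TATA box TATAAA (8.62%). A match is a description of letters and not of a bound site.

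Scn2a had log2 levels from 9.17 to 9.53 in learning rats with a median of 9.34, against 8.86 to 9.30 with a median of 9.19 in control rats. In 4 learning rats the level lay above every control value, and in 3 control rats it lay below every learning value. The groups thus overlapped in part. The mean was 9.34 ± 0.11 in learning and 9.12 ± 0.17 in control rats (SD, n = 7 each), a log2 difference of 0.22 (SE 0.0743, 95% confidence interval 0.06 to 0.37), or 1.16-fold. It did not pass in limma (adjusted p = 0.121), and an exact two-sided permutation test of this gene alone gave p = 0.0157. Without control replicate 5 the log2 difference was 0.23 (adjusted p = 0.139).

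Scn3a had log2 levels from 4.42 to 6.47 in learning rats with a median of 5.18, against 2.84 to 5.27 with a median of 4.16 in control rats. Control replicates 1, 3 and 6 lay below the dim cutoff and no learning rat did. In 3 learning rats the level lay above every control value. The mean was 5.15 ± 0.68 in learning and 4.03 ± 0.92 in control rats (SD, n = 7 each), a log2 difference of 1.13 (SE 0.389). The 95% confidence interval ran from 0.30 to 1.96 on the log2 scale, or from 1.23-fold to 3.88-fold around an estimate of 2.18-fold. It did not pass in limma (adjusted p = 0.123), and an exact two-sided permutation test of this gene alone gave p = 0.0245. With 3 control values below the cutoff, the size of the difference is uncertain. The spread within groups was wide: the pooled SD of 0.81 was at or above that of 99.8% of tested probe sets. Learning replicate 6 was the highest array, and without it the log2 difference was 0.91 (adjusted p = 0.207). Without control replicate 5 it was 1.15 (adjusted p = 0.164).

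Scn1a encodes Nav1.1, an alpha subunit that is prominent in parvalbumin-containing interneurons. Its log2 levels ran from 8.80 to 9.17 in learning rats with a median of 9.02, against 8.95 to 9.38 with a median of 9.05 in control rats. The highest value was that of control replicate 5 and the lowest were those of learning replicates 2 and 3, with wide overlap of the groups. The mean was 8.99 ± 0.14 in learning and 9.09 ± 0.15 in control rats (SD, n = 7 each), a log2 difference of -0.09 (SE 0.0740, 95% confidence interval -0.25 to 0.07, adjusted p = 0.534 in limma). The interval reaches from 0.842-fold to 1.05-fold. Without control replicate 5 the log2 difference was -0.04. Beside it, 8 of 10 interneuron markers above the dim cutoff had a mean level of 7.22 to 7.68 in learning and 7.32 to 7.50 in control arrays (exact permutation p = 0.800). Pvalb, which encodes parvalbumin, had a log2 difference of -0.12 (adjusted p = 0.284 in limma). The interneuron mean joins opposite signs: Gad2 had 0.76 (adjusted p = 0.110 in limma), and all the others ran from -0.23 for Sst to -0.03 for Vip. None of them was called.

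Scn8a encodes Nav1.6, the main alpha subunit of the mature axon initial segment and node of Ranvier. Its probe set was dim in all 14 arrays, with log2 levels from 3.00 to 3.17 and a median of 3.07 in learning rats, against 2.94 to 3.04 and a median of 2.99 in control rats. In 5 learning rats the level lay above every control value. All values lie below the cutoff of 3.88, and signal above background is not shown for this gene. In the fit without a filter the log2 difference was 0.08 (SE 0.0244, 95% confidence interval 0.02 to 0.13, adjusted p = 0.171 in limma over 15866 probe sets, exact permutation p = 0.00874 for this gene alone). In that fit 158 probe sets were called, 0.996%. Without control replicate 5 the log2 difference was 0.07.

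Scn2b encodes the beta-2 subunit, an immunoglobulin-domain membrane protein that is joined to the alpha subunit by a disulfide bond. Its log2 levels ran from 5.47 to 6.44 in learning rats with a median of 5.94, against 3.63 to 6.59 with a median of 5.44 in control rats. The lowest value was that of control replicate 5, which lay below the dim cutoff of 3.88, the next control value was 5.36, and the highest of all was that of control replicate 1. The mean was 5.91 ± 0.33 in learning and 5.44 ± 0.91 in control rats (SD, n = 7 each), a log2 difference of 0.47 (SE 0.330, 95% confidence interval -0.23 to 1.17, adjusted p = 0.457 in limma). Without control replicate 5 the log2 difference was 0.17, or 1.12-fold (adjusted p = 0.723).

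The level of Scn2b moved with the 3'/5' control ratios from array to array. After each group's mean was taken out, Pearson's r over the 14 arrays was -0.92 with the hexokinase ratio (permutation p = 4.70e-04, adjusted over 34 relations p = 0.0105), and Spearman's rho was -0.78 (permutation p = 0.00125, adjusted p = 0.0425). With the Gapdh ratio r was -0.83 (permutation p = 9.20e-04, adjusted p = 0.0105) and rho -0.72 (permutation p = 0.00757, adjusted p = 0.0858). The actin ratio gave an r of -0.86 (permutation p = 9.30e-04, adjusted p = 0.0105) and a rho of -0.74 (permutation p = 0.00497, adjusted p = 0.0845). Without the 2 arrays farthest from the median of each ratio, r was -0.48 for hexokinase, -0.73 for Gapdh and -0.63 for actin. Within learning arrays alone r was -0.58, -0.79 and -0.46 in the same order, and within control arrays -0.97, -0.92 and -0.90. With the Gapdh ratio as a covariate the log2 difference of Scn2b was -0.19, with the hexokinase ratio it was 0.07 and with the actin ratio 0.19, and none of these passed. The Gapdh ratio itself was 0.45 ± 0.05 in learning and 0.51 ± 0.06 in control arrays (SD, n = 7 each, exact permutation p = 0.0443, adjusted p = 0.124). The part of these ratios in the group difference was not tested further.

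**Figure D2:**
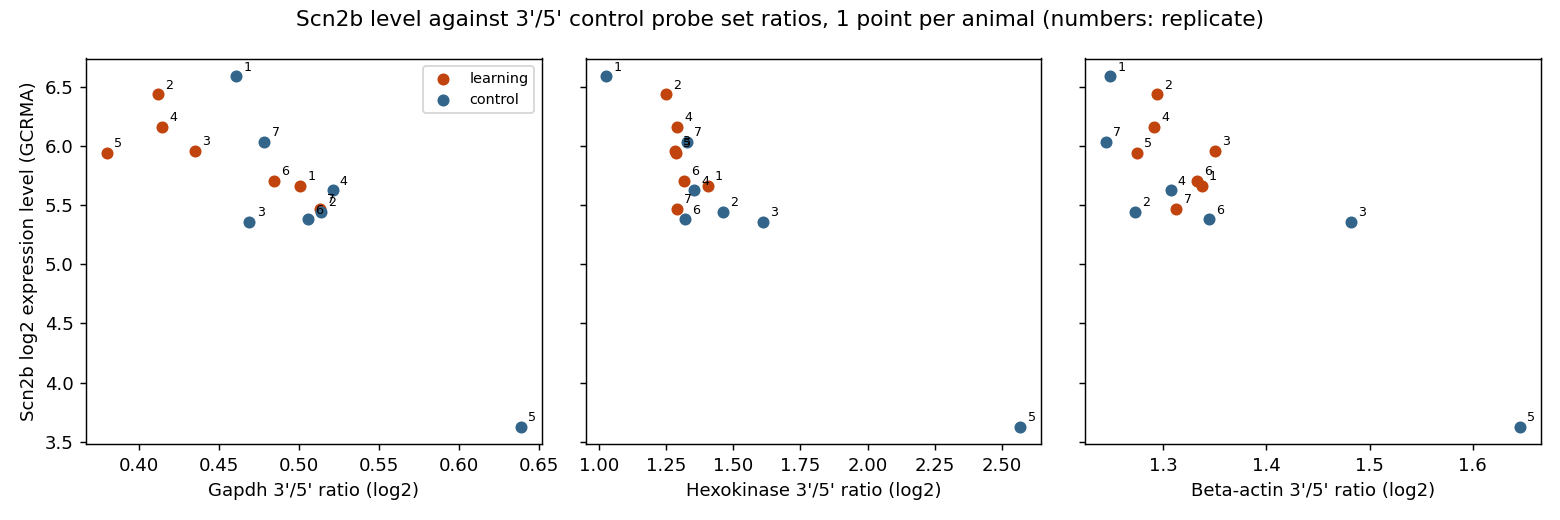
Log2 level of Scn2b (y axis) against the log2 3'/5' signal ratio of Gapdh, hexokinase and beta-actin (x axes), 1 point per animal, numbered by replicate within the learning and control groups. Control replicate 5 has the lowest Scn2b level, 3.63, and the highest ratio in each panel.

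For Scn1a, Scn2a and Scn3a no relation passed after adjustment over the 34. Their r with the hexokinase ratio was 0.50 (permutation p = 0.130, rho 0.36, permutation p = 0.193) for Scn1a, 0.25 (permutation p = 0.574, rho 0.17, permutation p = 0.617) for Scn2a and 0.00 (permutation p = 0.993, rho -0.12, permutation p = 0.719) for Scn3a. With the interneuron marker level, r was 0.18 for Scn1a (permutation p = 0.579, rho -0.02, permutation p = 0.960). Among the 4 tested members themselves, the largest positive r was that between Scn2a and Scn3a, 0.44 (permutation p = 0.161, adjusted p = 0.472), with a rho of 0.48 (permutation p = 0.109). It was 0.18 without the 2 arrays farthest from the Scn2a median, -0.44 within the learning arrays and 0.85 within the control arrays, and the difference between these was not tested. Scn1a and Scn2b had r = -0.48 (permutation p = 0.117, rho -0.35, permutation p = 0.230), which was 0.40 without the 2 farthest arrays, control replicate 5 among them.

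The genes whose levels followed each member most closely over the 14 arrays, group means taken out, were taken as the 4 highest of 7965 probe sets. They are descriptions with no test, since they were chosen as the highest. For Scn1a they were Wdr43 (r = 0.89), Pogz (0.89), Smn1 (0.85) and Thoc1 (0.85). For Scn2a they were Marcks (0.78), Stxbp5 (0.76), Arhgap44 (0.75) and Flrt2 (0.74). For Scn3a they were P4htm (0.79), Dhx36 (0.78), Crym (0.77) and Acot7 (0.77). For Scn2b they were Agap3 (0.94), Arf3 (0.94), Cap1 (0.92) and Vamp1 (0.92). Without the 2 arrays farthest from the member's median these values ran from 0.55 for Stxbp5 to 0.86 for Wdr43. Of these 16 genes 0 were called between the groups in limma and 4 had an unadjusted p under 0.05, where 3.35% and 19.9% of all tested probe sets did, with adjusted p-values from 0.110 for Arhgap44 to 0.987 for P4htm.

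None of the other sodium channel genes measured was called. Of 10 listed, 8 had a probe set of their own and 3 passed the dim filter, with 0 called in either direction by limma and 1 at an unadjusted p under 0.05. That was Scn3b, the beta-3 subunit, with a log2 level of 9.49 ± 0.14 in learning and 9.30 ± 0.11 in control rats (SD, n = 7 each), a log2 difference of 0.19 (SE 0.0647, adjusted p = 0.116). Scn4b, the beta-4 subunit, had 0.04 (adjusted p = 0.894) and Nalcn, the sodium leak channel, 0.03 (adjusted p = 0.810). The peripheral and muscle alpha subunits Scn4a, Scn9a, Scn10a and Scn11a and the related Scn7a were dim, with mean log2 levels from 2.05 to 3.66.

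Among genes listed for scaffold and adhesion proteins of the axon initial segment and node, Ank3, Nrcam and Cntn1 rose. Of 14 listed scaffold and adhesion genes all 14 passed the dim filter, and at their brightest probe sets 3 rose, 0 fell and 11 did not pass. The list's median log2 fold change there was -0.02, against -0.03 over all 6836 genes, of which 1.59% were called higher at the brightest probe set. The list was chosen with earlier results of these data known, so its count is not a test against that share. Ank3, which encodes ankyrin-G, the scaffold that anchors sodium channels, rose at both of its probe sets. The brighter had a log2 level of 8.84 ± 0.12 in learning and 8.57 ± 0.14 in control rats (log2 difference 0.28, adjusted p = 0.0382 in limma), and the other rose by 0.46 (adjusted p = 0.0186). Nrcam, an adhesion protein of the same site, had a log2 level of 9.54 ± 0.08 in learning and 9.16 ± 0.13 in control rats (0.38, adjusted p = 0.00323 in limma). Its other probe set did not pass (0.26). Cntn1, contactin-1, which binds sodium channel beta subunits, had 8.25 ± 0.15 in learning and 7.55 ± 0.33 in control rats (0.70, adjusted p = 0.00925 in limma). Sptbn1, a beta-spectrin, rose at 2 dimmer probe sets (0.53 and 0.80) and had 0.01 at its brightest. Sptbn4, the beta-spectrin typical of the initial segment, had -0.07 and neurofascin, Nfasc, -0.08 at their brightest probe sets, and neither passed, nor did the brightest of the list, Sptan1 (-0.05) and Ank2 (-0.02). These calls moved with array measures. With the Gapdh 3'/5' ratio as a covariate neither Ank3 probe set passed in limma (0.29 and 0.39, adjusted p = 0.138 and 0.131), nor did Cntn1 (0.53, adjusted p = 0.0889), while Nrcam did (0.31, adjusted p = 0.0475). With the level of dentate granule cell markers as a covariate neither Ank3 probe set passed (0.26 and 0.41, adjusted p = 0.107 and 0.0678). With the probe set balance as a covariate none of the 3 genes passed (0.20 for the brighter Ank3 probe set, adjusted p = 0.599, 0.23 for Nrcam, adjusted p = 0.420, and 0.22 for Cntn1, adjusted p = 0.540). The groups did not overlap in the balance, so that fit can hardly separate it from the group. The dimmer of the called Sptbn1 probe sets is itself part of the balance. The part of these measures in the differences was not tested further.

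**Figure D3:**
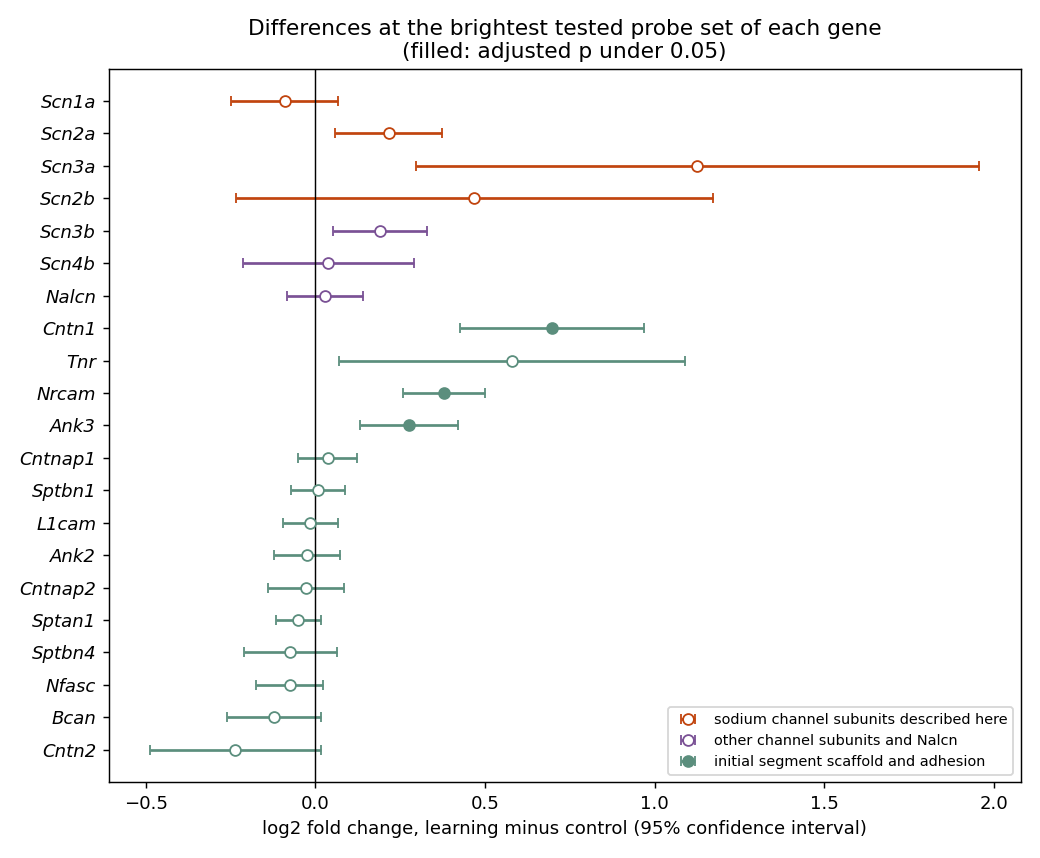
Log2 fold change, learning minus control, with its 95% confidence interval (x axis) at the brightest tested probe set of each gene (y axis). The genes are the 4 tested sodium channel subunits, 3 other channel genes and 14 listed scaffold and adhesion genes of the axon initial segment and node. Filled points have an adjusted p under 0.05, and they are Cntn1 (0.70), Nrcam (0.38) and Ank3 (0.28).

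Of the 6836 genes, each taken at its brightest probe set, 1.59% were called higher, 18.6% had an unadjusted p under 0.05 and the median log2 fold change was -0.03. The lists that follow were also chosen with earlier results known, so their counts are not a test against these shares. Among 13 measured enzymes known to modify, cleave or ubiquitinate sodium channels, 2 rose at their brightest probe sets and 0 fell. They were the ubiquitin ligase Nedd4 (log2 difference 0.50, adjusted p = 0.0454) and protein kinase C alpha, Prkca (0.72, adjusted p = 0.0209), while Prkce, one of the brightest, had 0.24 (adjusted p = 0.143). The dimmer Nedd4 probe set did not pass (0.11, adjusted p = 0.277 in limma), nor did Nedd4l (-0.01, adjusted p = 0.949). The list's median was 0.02. Of 5 measured axonal potassium channel genes 2 rose, Kcnq3 (0.71, adjusted p = 0.0366) and the auxiliary subunit Kcnab1 (0.45, adjusted p = 0.00323). The brightest, Kcnab2 (4.1e-04) and Kcna1 (0.21), did not pass, and the list's median was 0.21. The channel-binding growth factor Fgf13 (0.04) and the calmodulin gene Calm2 (0.11, adjusted p = 0.0941) were the 2 measured of 7 listed, and 0 were called by limma (1, Calm2, at an unadjusted p under 0.05). Of 4 measured sodium pump and exchanger genes 0 were called by limma (2 at an unadjusted p under 0.05), with 0.12 for Atp1b1 (adjusted p = 0.0753) and -0.02 for Atp1b3. The 10 called probe sets of these lists, with log2 differences from 0.28 to 0.80, had a positive difference in every other setting that tested them, but its size depended on the setting. With the probe set balance as a covariate, which can hardly be separated from the group, the differences were smaller. They ran from 0.19 at the dimmer Ank3 probe set to 0.33 for Prkca, with 0.26 for Kcnq3. In that fit 0 of the 10 were called by limma (4 at an unadjusted p under 0.05). With the Gapdh ratio the differences ran from 0.29 for the brighter Ank3 probe set to 0.66 for Sptbn1, and 2 were called, Nrcam and Kcnab1. Without control replicate 5, 7 were called. Those that no longer passed without that array were the brighter Ank3 probe set (0.28, adjusted p = 0.0581 in limma), Nedd4 (0.49, adjusted p = 0.0753) and Kcnq3 (0.62, adjusted p = 0.0569). Leaving out each array in turn, of 14 fits the call held in 5 for the brighter Ank3 probe set, 4 for Nedd4, 7 for Kcnq3 and 7 for the dimmer of the 2 called Sptbn1 probe sets, with adjusted p-values up to 0.0917, and in 14 for the other 6 probe sets.

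The sign of each member was followed over the processing settings. Over 28 other settings Scn2a had a positive log2 difference in 28, from 0.15 to 0.26, and an unadjusted p under 0.05 in 27. Scn3a had a positive one in 27 of 27, from 0.85 to 1.33, with an unadjusted p under 0.05 in 25. Scn1a was negative in 27 of 28, from -0.13 to 0.09. Scn2b was positive in 25 of 27 and ranged from -0.67 to 0.66. Scn8a, in the fits that held dim probe sets, was positive in 27 of 27, from 0.05 to 0.09, with an unadjusted p under 0.05 in 25. Each member had 1 probe set, so whether other stretches of the same transcripts moved alike could not be compared.

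**Figure D4:**
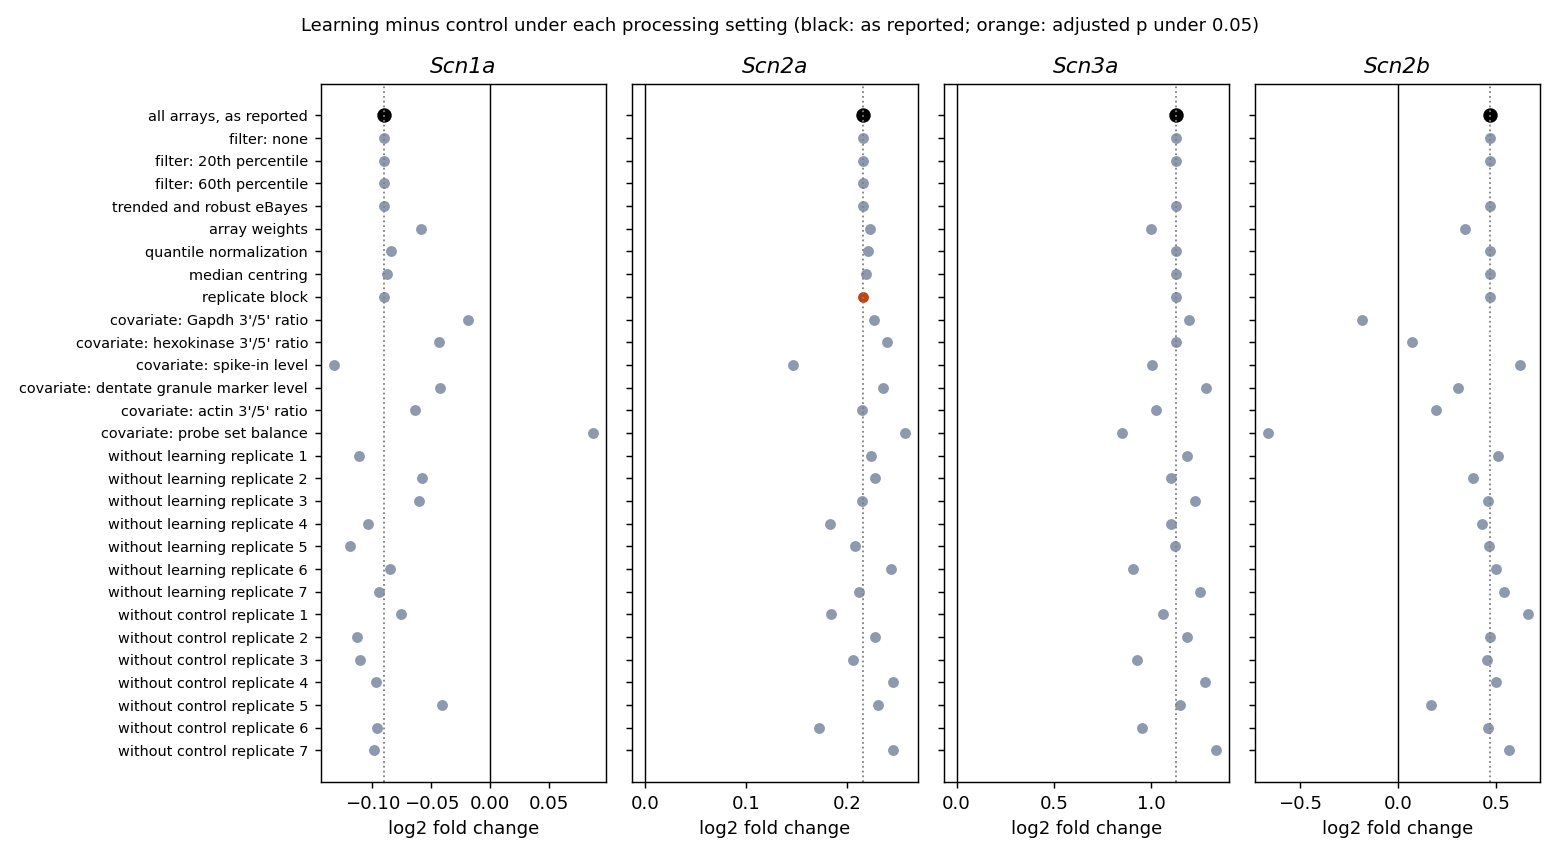
Log2 fold change, learning minus control (x axis, a different scale in each panel), of the 4 tested members under each processing setting (y axis). Black is the value as reported, orange an adjusted p under 0.05 and grey the rest. Scn2a and Scn3a stay above 0 throughout, while Scn2b ranges from -0.67 to 0.66.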

How the data were processed

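RNA of microdissected CA3 was hybridised to 14 arrays, per the labels' protocols. The deposited log2 values, 1 column per array, were made by the authors with GCRMA, per the submitters' processing notes; its version is not given in the sources used here. GCRMA corrects background by probe sequence, and values near background are compressed. The log2 scale was inferred from the values. Column means lay at 5.44 in both groups, and the values were not centred per gene. Groups and replicate numbers came from the sample titles, which call the samples biological replicates. Scan dates were not used, batches were therefore not tested, and precision is limited by how many arrays there were.

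By the platform annotation 12789 probe sets had a single gene, and 312 had several and were left unnamed. Of the single-gene ones 12754 matched the RefSeq gene table (GRCr8) by Entrez ID. After 57 control and 6346 dim probe sets were left out, 9520 were fitted with limma 3.58.1 (lmFit, eBayes) in R 4.3.3, learning minus control, with Benjamini-Hochberg adjustment. "Rose" and "fell" are used only at an adjusted p under 0.05. Single values per array were compared by two-sided exact permutation over 3432 assignments, and relations across arrays by 100000 permutations within groups. The procedure was tested on simulated data. The planned test of differences between probe sets of a gene was not run, since each member has 1.

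Every member is named. From each pathway list the called members and the 2 brightest were named, with others added after their values were seen. The members and lists were chosen with earlier results of these data known. Same-numbered animals were checked for pairing: the correlation of their deviations exceeded 0.1 in 2 of 7 pairs (range -0.16 to 0.13), so the numbers were not taken as pairs. Alternatives were other dim filters, variance moderation, array weights, normalizations, a replicate block, covariates and each array left out. The actin ratio and probe set balance were added after the data were seen, as were the alternatives for pathway genes.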

Additional observations from a re-analysis of the deposited data

Results flagged for a closer look

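In 6 of 80 groups of 7 values an end value lay far from the others by Dixon's test, which chance gives in about 1 of 20 groups. All but 1 of these 6 were control replicate 5. Its Scn2b log2 level was 3.63 (next control value 5.36), its Kcnq3 level 4.22, its Gapdh 3'/5' ratio 0.638, its hexokinase ratio 2.57 and its probe set balance -3.65. The other was the CA3 pyramidal marker level of learning replicate 2, 9.62.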

How the results depend on the processing

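In 27 of 28 other settings 0 of the sodium channel probe sets tested were called (4 tested, but 5 with no filter or the 20th percentile filter and 2 at the 60th). The exception was the replicate block, with 1, Scn2a (log2 difference 0.22, adjusted p = 0.0438; its adjusted p ran from 0.0438 to 0.539 over the alternatives). The numbers do not pair the animals by the check made, and 1 of 7 learning samples correlated best with its own number. Signs turned for Scn2b with the Gapdh ratio (-0.19) or probe set balance (-0.67) as covariate and for Scn1a with the balance (0.088). Among probe sets near 0 they turned for Kcnab2 (quantile normalization -0.0062, Gapdh ratio -0.014, spike-in level -0.016, and -0.037 to 0.032 with single arrays left out). Among these, signs also turned with the spike-in level for Nalcn (-0.0026) and Atp1b3 (0.016), and with the balance for Ank2 (0.045). Kcna1, which was not near 0 as reported (0.21), had -0.0018 with the balance. The cause was not tested. The groups did not overlap in the balance, so a fit with it as a covariate can hardly separate it from the group. The count of all called probe sets, 319, was 158 with no filter, 39 when the Gapdh ratio was a covariate, 107 for the dentate marker level, 169 with the spike-in level, 177 with the hexokinase ratio and 0 with the balance (853 at unadjusted p under 0.05, limma). Leaving out 1 array gave 163 to 352, with 163 to 188 without learning replicate 3, 4, 6 or 7 or control replicate 1, 2 or 3. The filter at the 60th percentile removed Scn3a, Scn8a and Scn2b. Signal near background limits Scn8a and Scn3a most.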
